A study of Mus musculus with 6 samples.

Results

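The mitochondrially encoded genes were read in mouse microglia after co-culture with neutrophils from the injured spinal cord. All genes whose symbol starts with mt- were taken from the deposited table, which gave 37 of 55335 gene identifiers. They are the 13 mRNAs, 2 rRNAs and 22 tRNAs of the mitochondrial genome. Microglia came from the brains of newborn C57BL/6 mice and were of WT genotype in every library. Neutrophils were sorted with magnetic beads from spinal cord lesions of adult male mice at 3 days post injury (dpi). The neutrophil donors either carried the Cd177 gene (WT) or lacked it (KO), and Cd177 codes for a surface receptor of neutrophils. Both arms shared the injury and 24 h of direct co-culture, and neither held microglia without neutrophils. Microglia were then gated as Ly6G- by FACS, and 3 libraries per arm were sequenced. The comparison asked how the RNA of these microglia differed with Cd177 in the neutrophils. No source used here states separate cultures or donors for the libraries of an arm, so p-values measure only the spread between these libraries.

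Mitochondria keep a small circular genome of their own. It is transcribed from both strands into long precursors, and the tRNAs that lie between the other genes mark where these precursors are cut. Its mRNAs code for core subunits of respiratory complex I, complex III, complex IV and the ATP synthase, while the remaining subunits come from nuclear genes and are imported. The rRNAs form the mitochondrial ribosome, and the tRNAs serve translation inside the organelle. In microglia and macrophages, respiration is known to vary with the inflammatory state of the cell.

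Some of these mRNAs share letters with a neighbour, and reads from such stretches can belong to either gene. Stretches of at least 7 bases shared by neighbouring mRNAs are shown in capitals, on the plus strand of GRCm38 with the gene positions of GENCODE M21. mt-Atp6 and mt-Co3 also share the single position chrM:8607, which is not shown. The first, chrM:7915-7981, holds 43 bases that are read in both mt-Atp8 and mt-Atp6. The second, chrM:10155-10185, holds 7 bases shared by mt-Nd4l and mt-Nd4. The third, chrM:13540-13577, holds 14 bases where mt-Nd5 and mt-Nd6 meet from opposite strands.
mt-Atp8 and mt-Atp6: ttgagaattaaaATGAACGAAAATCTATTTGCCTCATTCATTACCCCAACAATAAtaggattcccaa
mt-Nd4l and mt-Nd4: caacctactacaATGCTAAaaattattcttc
mt-Nd5 and mt-Nd6: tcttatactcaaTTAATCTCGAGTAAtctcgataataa

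Several of the reading frames stop at a single T, which becomes a full stop codon only when the poly(A) tail is added. The last 15 bases of 3 such mRNAs are shown with that T in capitals, since libraries made from polyadenylated RNA read these ends. They lie at chrM:9376-9390, chrM:11530-11544 and chrM:15274-15288.
mt-Co3: attgatgaggatctT
mt-Nd4: caggcctgacaataT
mt-Cytb: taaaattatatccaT

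Values are FPKM, the fragments of a gene scaled to its length and to the mapped fragments of the library. The FPKM sum of a WT library was 314085 to 315632, and that of a KO library was 323588 to 326868. The number of sequenced fragments is unknown, since whole fragments could not be recovered from these values. Of 15 neutrophil markers, 7 were at 0 in all libraries, Ly6g, S100a9, Mpo and Elane among them, and no value was above 0.744 FPKM. Cd177 itself was at 0.477, 0.113 and 0.151 FPKM in the WT arm and at 0.109, 0.0217 and 0.0845 FPKM in the KO arm, too low to check the donor genotype. Of 15 astrocyte and oligodendrocyte markers, none was above 0.228 FPKM. The macrophage genes Cd68 and Tyrobp were above 135 FPKM in every library, but the microglia markers Sall1, Fcrls and C1qa were at 0 throughout and P2ry12 stayed under 0.149 FPKM.

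Next, the changes over the whole genome of the organelle were counted. All 37 genes had a mean of at least 1 FPKM and were tested. With KO neutrophils 26 rose, 2 fell and 9 made no call (limma, adjusted p under 0.05 over 11395 genes). Over all genes tested 43.3% were called in either direction and 24.5% were called higher. Both arms were free of overlap for 29 of the 37, against 55.8% of all genes tested. All 13 mRNAs rose, with log2 changes from 0.15 to 0.84 and a median of 0.58, while the median over all genes tested was 0.02. In bulk RNA, a change in the number of cells of one type and a change in the RNA per cell cannot be told apart, and the number of mitochondrial genomes per cell was not measured.

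The scale of the values mattered little for the direction. After each library was rescaled to a common sum, 25 members rose and 2 fell, and 19.2% of all genes were called higher. The median of the 13 mRNAs was then 0.53, and that of all genes was -0.02. When the sum was set equal over the genes outside the mitochondrial genome, 27 rose and 2 fell, and 24.8% of all genes were called higher. All 13 mRNAs rose on each of these scales.

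Complex I, NADH dehydrogenase, takes electrons from NADH and pumps protons, and 7 of the 13 mRNAs belong to it. Together they rose with a median log2 change of 0.69. mt-Nd1 (chrM:2751-3707), a membrane subunit next to the quinone site, had 2016, 2017 and 1998 FPKM beside WT neutrophils and 3249, 3307 and 3357 FPKM beside KO neutrophils. The arms did not overlap, and the log2 change was 0.72 (SE 0.02, adjusted p = 9.33e-07 by limma). mt-Nd4l (chrM:9877-10173) rose most within the complex. It went from 981, 961 and 962 FPKM to 1651, 1673 and 1655 FPKM, a log2 change of 0.78 (SE 0.02, adjusted p = 5.17e-07 by limma). Its neighbour mt-Nd4 (chrM:10167-11544), with which it shares the short stretch printed above, went from 1303, 1294 and 1296 FPKM to 2061, 2106 and 2115 FPKM. That is a log2 change of 0.69 (SE 0.02).

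mt-Nd3 (chrM:9459-9806) was the least abundant of the mRNAs. It had 266, 270 and 277 FPKM in the WT arm and 447, 431 and 467 FPKM in the KO arm, a log2 change of 0.72 (SE 0.03, adjusted p = 1.34e-05 by limma). mt-Nd2 (chrM:3914-4951) had 1190.2, 1193 and 1208 FPKM against 1806, 1824 and 1859 FPKM, a log2 change of 0.61 (SE 0.02). mt-Nd5 (chrM:11742-13565) had 1259, 1243 and 1248 FPKM against 1856, 1775 and 1886 FPKM, a log2 change of 0.56 (SE 0.02). These are proton pumping subunits apart from mt-Nd3, and each rose without overlap of the arms. mt-Nd6 (chrM:13552-14070) is the only mRNA annotated on the other strand. The strand setting of the libraries is not given, so its values may hold reads of the opposite strand. mt-Nd6 had 1132, 1083 and 1124 FPKM in the WT arm and 1698, 1532 and 1758 FPKM in the KO arm, with KO replicate 2 below the other two. Its log2 change of 0.58 had the widest error of the mRNAs (SE 0.05, adjusted p = 0.00027 by limma).

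Complex III passes electrons from ubiquinol to cytochrome c, and mt-Cytb (chrM:14145-15288) codes for its only mitochondrial subunit, cytochrome b. It rose more than any other mitochondrial mRNA. Its FPKM was 2685, 2682 and 2729 in the WT arm and 4784, 4771 and 4908 in the KO arm. Replicates lay close together and far from the other arm, and the log2 change was 0.84 (SE 0.02, adjusted p = 5.46e-07 by limma), a fold of 1.79.

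Complex IV, cytochrome c oxidase, hands the electrons to oxygen, and its 3 mitochondrial subunits rose least, with a median log2 change of 0.22. mt-Co1 (chrM:5328-6872), the catalytic subunit, was the most abundant gene of the whole table in every library. It had 8255, 8304 and 8242 FPKM beside WT and 9191, 9063 and 9304 FPKM beside KO neutrophils. The arms did not overlap but the log2 change was only 0.15 (SE 0.01, adjusted p = 0.000374 by limma), and the call was lost without the filter on low values (adjusted p = 0.13). mt-Co2 (chrM:7013-7696), which binds cytochrome c, had 3341, 3255 and 3397 FPKM against 3806, 3855 and 3967 FPKM, a log2 change of 0.22 (SE 0.02, adjusted p = 0.000576 by limma). mt-Co3 (chrM:8607-9390) had 2650.0, 2658 and 2737 FPKM against 3327, 3282 and 3309 FPKM, a log2 change of 0.30 (SE 0.02, adjusted p = 3.87e-05 by limma). Under quantile normalization the calls of these 3 mRNAs were lost, and mt-Co1 and mt-Co2 were fixed at 0 because they held the same rank in all libraries.

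The ATP synthase, complex V, uses the proton gradient to make ATP, and 2 of its membrane subunits are mitochondrial. mt-Atp8 (chrM:7766-7969) had 4445, 4451 and 4655 FPKM beside WT and 6004, 5796 and 5953 FPKM beside KO neutrophils. Its log2 change was 0.39 (SE 0.02, adjusted p = 5.36e-05 by limma). mt-Atp6 (chrM:7927-8607), which overlaps it in the first stretch printed above, had 3725, 3792 and 3845 FPKM against 4806, 4758 and 4824 FPKM. Its log2 change was 0.34 (SE 0.02, adjusted p = 1.82e-05 by limma). Both rose without overlap and lay between complex IV and complex I.

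**Figure D1:**
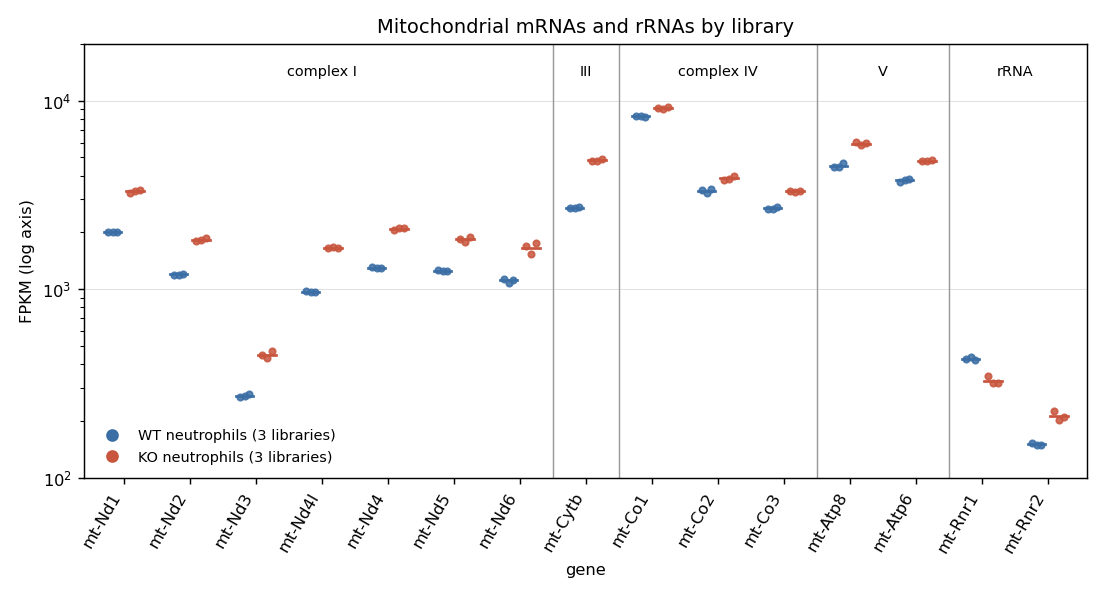
FPKM on a log axis of the 13 mitochondrial mRNAs, grouped by respiratory complex, and of the 2 rRNAs. Points are libraries, 3 with WT and 3 with KO neutrophils, and bars are means. All 13 mRNAs are higher with KO neutrophils with no overlap, mt-Rnr1 is lower and mt-Rnr2 is higher.

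The rise was therefore unequal within one genome, and this was examined next. Each mRNA was set against all 13, itself included, by subtracting in each library their median log2 level. In this fit 10 of the 13 were called, 2 higher and 8 lower, beside 93.2% of all genes tested, so that the count itself says little. The centred log2 change between the arms, KO minus WT, was 0.13 for mt-Cytb and 0.07 for mt-Nd4l. It was -0.55 for mt-Co1, -0.49 for mt-Co2 and -0.40 for mt-Co3. Also called lower were mt-Atp8 (-0.32) and mt-Atp6 (-0.37), and mt-Nd2 (-0.09), mt-Nd5 (-0.15) and mt-Nd6 (-0.13) of complex I. The median gene was mt-Nd1 in 4 libraries and mt-Co3 in 2, so this centre largely followed mt-Nd1. With the mean of the 13 as the centre, 11 were called, 6 higher and 5 lower, beside 87% of all genes. The 6 were mt-Cytb and all of complex I apart from mt-Nd5 and mt-Nd6, and the 5 were the mRNAs of complex IV and complex V.

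The same changes were then written as ratios within a library, which do not depend on its scaling and are no separate support. These ratios were chosen after the values had been seen. The mean log2 level of the complex I mRNAs minus that of the complex IV mRNAs was -2.03, -2.04 and -2.05 in the WT arm and -1.60, -1.62 and -1.58 in the KO arm. The difference was 0.44, with an exact two-sided permutation p of 0.1, the smallest that 3 libraries against 3 can give. mt-Cytb minus complex IV differed by 0.61 and complex I minus complex V by 0.30, both with the same exact permutation p of 0.1 and no overlap between the arms. As a share of the 13 mRNAs, mt-Co1 went from 24.8% ± 0.29 to 20.5% ± 0.0322 (SD, n = 3 each). mt-Cytb went from 8.08% ± 0.0099 to 10.8% ± 0.0608 (SD, n = 3 each). The shares of mt-Atp8 overlapped between the arms, with 13.5% ± 0.241 and 13.2% ± 0.181 (SD, n = 3 each).

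In the order of the genome, the small rises formed one run. mt-Co1, mt-Co2, mt-Atp8, mt-Atp6 and mt-Co3 are the 5 consecutive mRNAs between mt-Nd2 and mt-Nd3, and their log2 changes were 0.15, 0.22, 0.39, 0.34 and 0.30. The mRNAs before and after this run rose by 0.56 to 0.84. The run was noticed in these data and was not tested as such.

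**Figure D2:**
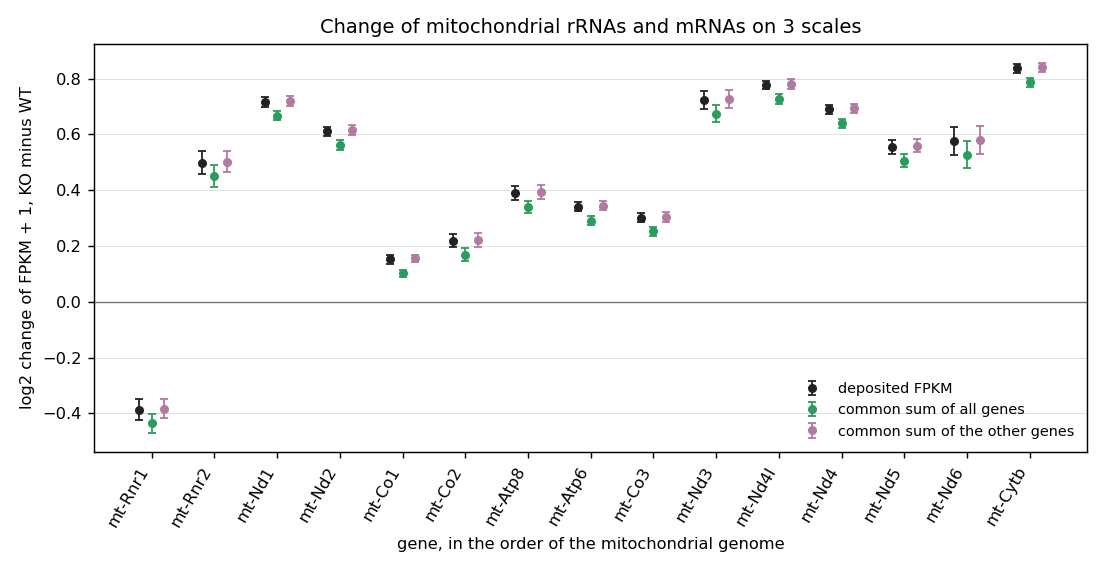
Log2 change of FPKM + 1, KO minus WT, of the 2 rRNAs and 13 mRNAs in the order of the mitochondrial genome. Points are fitted changes and bars are 1 standard error, on the deposited scale, on a common sum of all genes and on a common sum of the other genes. From mt-Co1 to mt-Co3 the changes are 0.39 or less, mt-Rnr1 is below 0 and the other genes lie between 0.45 and 0.84 on all scales.

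Both rRNAs moved, but in opposite directions. mt-Rnr1 (chrM:70-1024), the 12S rRNA of the small ribosomal subunit, fell from 426, 434 and 422 FPKM to 346, 317 and 319 FPKM. Its log2 change was -0.39 (SE 0.04, adjusted p = 0.00034 by limma). mt-Rnr2 (chrM:1094-2675), the 16S rRNA of the large subunit, rose from 152, 149 and 149 FPKM to 226, 203 and 208 FPKM. Its log2 change was 0.50 (SE 0.04, adjusted p = 0.000187 by limma). In both genes KO replicate 1 was the highest of its arm. Only mt-Tv lies between these genes in the genome, and the log2 ratio of mt-Rnr2 to mt-Rnr1 went from -1.49, -1.54 and -1.50 to -0.61, -0.64 and -0.61. This ratio combines both changes above, which had opposite directions and no overlap of the arms. Its exact two-sided permutation p was therefore fixed at 0.1, the smallest possible, and adds no support. The labels name an mRNA library kit, and the level of an rRNA there is only the portion that came through it. A hand-written list of nuclear RNAs with little or no poly(A) tail was counted for this reason, although their tails were not measured. Of 10 tested, 5 were higher and 0 lower (median 0.40), so that 50% were called beside 43.3% of all genes. After rescaling to a common sum 4 were higher and 0 lower, or 40% called beside 42.5% of all genes. Neat1, Hist1h2bc and Hist1h1c were called at the smallest p, with Neat1 at 6.97, 7.11 and 7.02 FPKM against 9.43, 11.1 and 10.6 FPKM. Malat1 and Hist1h4i were also called higher. No call was made for Rn7sk (log2 change 0.01), Rn7s1 (-0.01), Rn7s2 (0.00), Rmrp (0.54) and Terc (-0.28), whose values spread widely within the arms. The part that such RNA had in the result was not tested.

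Of the 22 tRNAs, 12 rose, mt-Tp fell and 9 made no call, with a median log2 change of 0.31, beside 24.5% of all genes tested called higher. FPKM of so short a gene rests on the length correction used, which is not given, and reads there may come from precursors that were not yet cut. The most abundant were mt-Te (glutamate) and mt-Tl1 (leucine). mt-Te (chrM:14071-14139) had 235, 210.0 and 233 FPKM in the WT arm and 348, 323 and 358 FPKM in the KO arm, a log2 change of 0.60 (SE 0.06, adjusted p = 0.000315 by limma). mt-Tl1 (chrM:2676-2750), which lies between mt-Rnr2 and mt-Nd1, had 191, 188 and 190.2 FPKM against 294, 313 and 315 FPKM. Its log2 change of 0.69 (SE 0.03) lay near that of mt-Nd1.

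mt-Tl2 had 167, 150.4 and 150.0 FPKM against 198, 199 and 203 FPKM, a log2 change of 0.36 (SE 0.04). mt-Th (histidine) had 136, 122 and 121 FPKM against 153, 172 and 149 FPKM, a log2 change of 0.32 (SE 0.07). mt-Tn (asparagine) had 133, 134 and 138 FPKM against 153, 153 and 161 FPKM, a log2 change of 0.21 (SE 0.03). Each of these rose without overlap of the arms. mt-Tp (proline, chrM:15356-15422) went the other way, from 142, 140.3 and 137 FPKM to 114, 117 and 132 FPKM. Its log2 change was -0.21 (SE 0.05, adjusted p = 0.0228 by limma), and KO replicate 3 was nearest to the WT arm. This call was lost in 4 of the 6 fits that left out 1 library, those without WT replicates 1 and 2 and KO replicates 1 and 2, where the adjusted p reached 0.0715 without KO replicate 2.

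The lower tRNAs were less certain. mt-Tw, mt-Tm, mt-Tt, mt-Td, mt-Tk, mt-Tr and mt-Tq rose, with mean levels of 2.05 to 16.1 FPKM in the WT arm and log2 changes from 0.31 to 0.86. mt-Tq had the largest of these changes, from 2.09, 2.63 and 1.43 FPKM to 4.28, 3.28 and 6.16 FPKM (log2 change 0.86, SE 0.22, adjusted p = 0.0222 by limma). Calls were lost when single libraries were left out, for mt-Tq without WT replicate 1 or 3 or KO replicate 1, for mt-Tk without WT replicate 1 or 3 or KO replicate 2 or 3, and for mt-Tr without any library but WT replicate 3. The adjusted p then reached 0.0613 for mt-Tq without WT replicate 3, 0.0798 for mt-Tk without KO replicate 3 and 0.0977 for mt-Tr without KO replicate 1. The call of mt-Tr was also lost on the common sum (adjusted p = 0.06). Without the filter on low values the calls of mt-Tq, mt-Tk, mt-Tr and mt-Tp were lost, with adjusted p from 0.061 to 0.0826. No call was made for mt-Ta, mt-Tc, mt-Ty, mt-Tf, mt-Ti, mt-Tg, mt-Ts1, mt-Tv and mt-Ts2. mt-Ta had 64.3, 71.1 and 70.4 FPKM against 77.4, 72.2 and 82.5 FPKM, without overlap but with an adjusted p of 0.0598 (limma). It passed without KO replicate 2 (adjusted p = 0.0327) and, narrowly, on the common sum of the other genes (adjusted p = 0.0496). mt-Tc, with overlapping arms, passed without KO replicate 1 (adjusted p = 0.0118).

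Of the 14 tRNAs on the plus strand, 9 rose and 0 fell. Of the 8 on the minus strand, 3 rose and 1 fell, beside the same 24.5% of all genes called higher. In the cluster mt-Ta, mt-Tn, mt-Tc and mt-Ty on the minus strand, only mt-Tn was called. The difference between the strands was not tested. Since the strand setting is not given, reads of opposite strands may not have been told apart.

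mt-Ts2, a serine tRNA, was set apart in 1 library. It had 0.305, 0.347 and 0.336 FPKM in the WT arm and 0.351 and 0.292 FPKM in KO replicates 1 and 2, but 198 FPKM in KO replicate 3. Its neighbours mt-Th and mt-Tl2 showed no such step. The fitted log2 change was 2.40 (SE 1.92, adjusted p = 0.353 by limma), and it was -0.01 without KO replicate 3. The gene passed the filter of 1 FPKM only through that library. The sequences of the 3 adjoining tRNAs are shown, with mt-Th at chrM:11546-11612, mt-Ts2 at chrM:11613-11671 and mt-Tl2 at chrM:11671-11741. mt-Ts2 and mt-Tl2 share 1 position, and mt-Ts2 is the shortest of the 3 at 59 bases against 67 and 71.
mt-Th: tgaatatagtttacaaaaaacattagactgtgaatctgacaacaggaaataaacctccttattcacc
mt-Ts2: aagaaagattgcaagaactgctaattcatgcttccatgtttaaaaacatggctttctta
mt-Tl2: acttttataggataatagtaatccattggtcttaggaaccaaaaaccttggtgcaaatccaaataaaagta

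**Figure D3:**
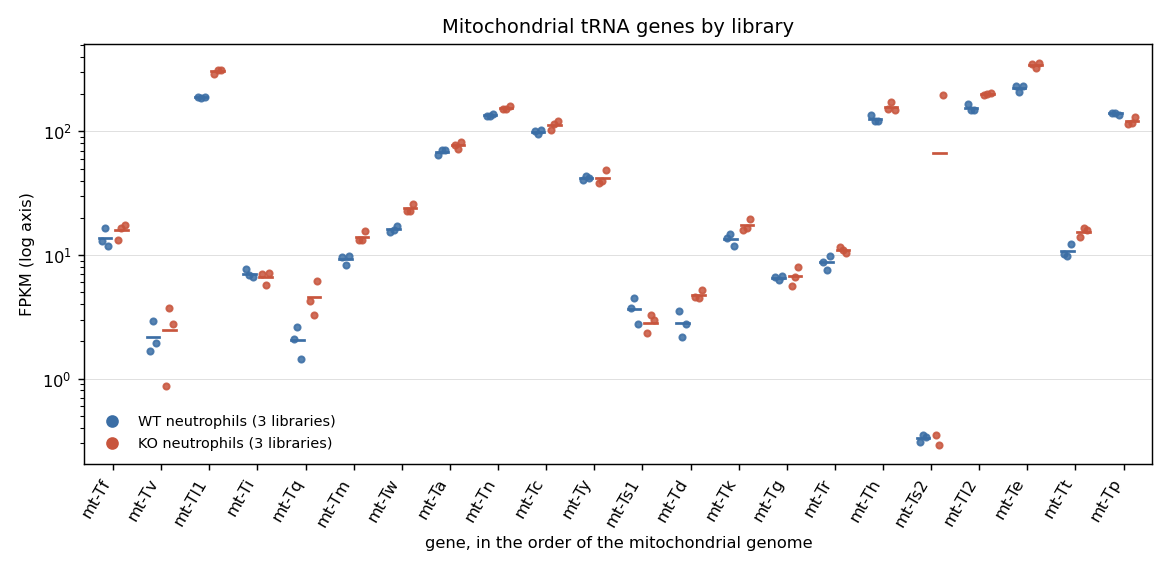
FPKM on a log axis of the 22 mitochondrial tRNA genes in genome order. Points are libraries, 3 with WT and 3 with KO neutrophils, and bars are means. mt-Ts2 is under 0.36 FPKM in 5 libraries and at 198 FPKM in 1 KO library, which alone sets the bar of its arm.

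Taken as a share of all FPKM, the mitochondrial genes held 11.2%, 11.1% and 11.3% in the WT arm and 14.3%, 14.3% and 14.6% in the KO arm. The difference of 3.22 percentage points had an exact two-sided permutation p of 0.1, the smallest possible. The 13 mRNAs made up nearly all of it, at 10.6% ± 0.111 and 13.7% ± 0.122 (SD, n = 3 each). The rRNAs went from 0.184% ± 0.00156 to 0.166% ± 0.0082 (SD, n = 3 each). The tRNAs without mt-Ts2 went from 0.407% ± 0.0094 to 0.504% ± 0.0171 (SD, n = 3 each). Among the 20 most abundant genes, 7 were mitochondrial in each WT library and 10, 10 and 11 in the KO libraries.

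The FPKM sum of all other genes did not separate the arms. It was 279030.0, 280593 and 278516 in the WT arm and 279679, 277269 and 279074 in the KO arm (exact two-sided permutation p = 0.6). The larger total of the KO libraries was thus held by the mitochondrial genes, since their own sum went from 35247 ± 282 to 46988 ± 747 (SD, n = 3 each). This holds for FPKM, which weights each fragment by the inverse of gene length. The expected portion of fragments, FPKM times length, was 3.26%, 3.26% and 3.28% against 4.29%, 4.25% and 4.36% for the same genes.

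Reads of these genes can also match nuclear copies of the mitochondrial genome, so copies were searched among the nuclear transcripts of GENCODE M21. At 90% identity or more over at least 200 bases, 15 copies were found. Of these, 7 matched at 99% or more, had a mean of at least 1 FPKM and lay in one stretch, chr1:24611535-24616197, on the minus strand. They correspond to mt-Co1, mt-Co2, mt-Atp6, mt-Co3, mt-Nd3, mt-Nd4l and mt-Nd4. For the other 6 mRNAs no such copy was found among annotated transcripts, and unannotated sequence was not searched. Gm28661, the copy of mt-Co2, was identical over 681 bases and had 3345 ± 72.3 FPKM beside WT and 3894 ± 82.2 FPKM beside KO neutrophils (SD, n = 3 each). Its level was 1.00 times that of mt-Co2 in both arms. For Gm28437 (mt-Co3), Gm10222 (mt-Nd4l) and Gm10925 (mt-Atp6), also identical, this ratio was 1.00, 1.02 and 1.07 in the WT arm. For Gm28439, identical to the first 876 bases of mt-Nd4 or 63.6% of that gene, it was 0.658.

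The copies moved as their members did, with 1 exception. Log2 changes were 0.34 for Gm10925, 0.22 for Gm28661, 0.30 for Gm28437, 0.67 for Gm28438, 0.71 for Gm28439 and 0.77 for Gm10222, and these 6 passed the test. Gm29216, a copy of the last 483 bases of mt-Co1, had 2868, 2908 and 2919 FPKM in the WT arm and 2785, 2802 and 2939 FPKM in the KO arm. The arms overlapped, with a log2 change of -0.03 (SE 0.02, adjusted p = 0.372 by limma). On the common sum it was called lower, at -0.08 (adjusted p = 0.03). It differs from mt-Co1 at A1066T, counted from the first base of the gene, while Gm28438 differs from mt-Nd3 at T3C. This place is shown with the base in capitals, at chrM:9459-9476 for mt-Nd3.
mt-Nd3: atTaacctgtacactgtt
Gm28438: atCaacctgtacactgtt

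The deposited values do not show which reads belonged to a member and which to its copy, so the levels of these 7 mRNAs are uncertain. When each member was summed with its copy, the complex I to complex IV difference was 0.45, against 0.44 for the members alone. With copies added, the mitochondrial share was 15.9% to 16.2% and 20.1% to 20.5%, a difference of 4.18 points. The FPKM sum of the other genes without these copies was 263134 to 265523 for WT and 258559 to 260986 for KO neutrophils, now without overlap. Less similar copies were low. Gm13341 had a mean of 37.9 FPKM, Gm13340 of 17.9 FPKM and Gm13339 of 1.03 FPKM, none of them called, and the other 5 had means of at most 0.178 FPKM.

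**Figure D4:**
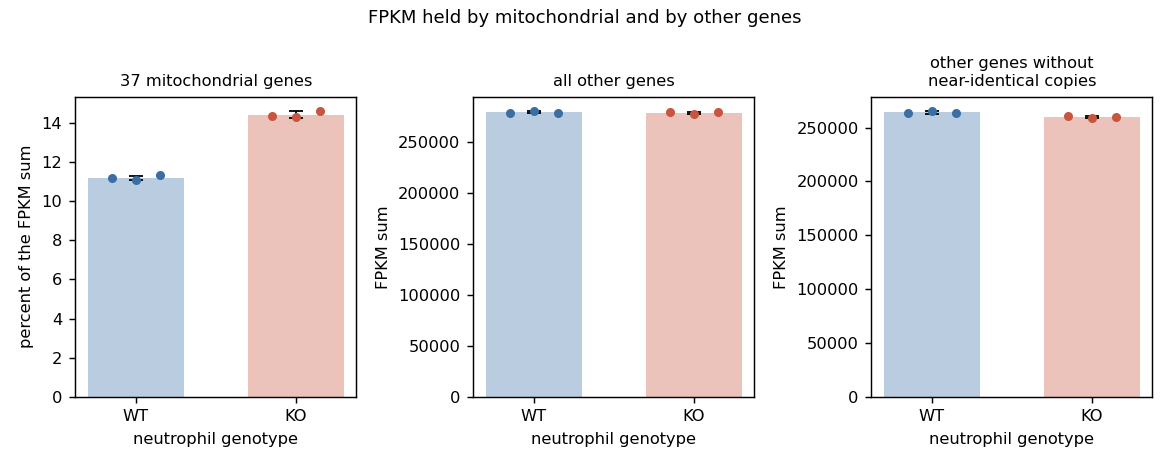
Bars are means with SD over 3 libraries per arm and points are libraries. Left, percent of the FPKM sum held by the 37 mitochondrial genes (11.1 to 11.3 against 14.3 to 14.6). Middle, FPKM sum of all other genes, which overlaps between the arms. Right, the same without the 7 near-identical nuclear copies, which is lower with KO neutrophils.

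Next, the nuclear partners of these genes were read from hand-written lists. Of 74 nuclear subunits of complexes I, III, IV and V, 41 rose and 1 fell, with a median log2 change of 0.18. Thus 56.8% were called in either direction beside 43.3% of all genes, while 24.5% of all genes were called higher. On the common sum 30 rose and 1 fell, and the median was 0.13. There 41.9% were called in either direction beside 42.5% of all genes, while 19.2% of all genes were called higher. By complex the medians were 0.17 for the 37 subunits of complex I, 0.14 for the 9 of complex III, 0.36 for the 11 of complex IV and 0.19 for the 17 of the ATP synthase. The order of complex I and complex IV was thus the reverse of that among the mitochondrial mRNAs, where the medians were 0.69 and 0.22. That reversal was not tested.

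Within complex I, 18 of 37 nuclear subunits rose and 0 fell, which is 48.6% called beside 43.3% of all genes. With the common sum 10 rose and 0 fell, or 27.0% called beside 42.5% of all genes, with 19.2% of all genes called higher. The accessory subunit Ndufb3 rose from 38.3, 40.5 and 41.3 FPKM to 81.0, 69.8 and 69.9 FPKM (log2 change 0.86, SE 0.06, adjusted p = 0.000125 by limma), and Ndufa8 and Ndufb8 rose by 0.30 and 0.28. In complex III, 5 of 9 rose. Uqcrh, the hinge protein, went from 29.5, 28.9 and 28.1 FPKM to 60.6, 51.9 and 52.9 FPKM (log2 change 0.91), with Uqcr10 at 0.50 and Uqcrb at 0.48. In complex IV, 8 of 11 rose. Cox6b1 went from 85.3, 82.2 and 84.5 FPKM to 154, 146 and 153 FPKM (log2 change 0.84), with Cox7b at 0.77 and Cox7a2 at 0.69. In the ATP synthase 10 rose and 1 fell. Atp5k, the small subunit e, more than doubled from 21.5, 21.98 and 23.4 FPKM to 49.7, 45.9 and 50.9 FPKM (log2 change 1.10), with Atp5g3 at 0.67 and Atp5l at 0.52.

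Complex II, succinate dehydrogenase, is the 1 respiratory complex with no mitochondrially encoded subunit. All 4 of its genes rose, beside 24.5% of all genes. The median log2 change was 0.38, with Sdha, the catalytic flavoprotein, at 75.6 ± 0.969 and 95.1 ± 0.784 FPKM (SD, n = 3 each). The membrane anchors Sdhc and Sdhd rose by 0.54 and 0.43. Of 20 general constituents of the organelle, 10 rose and 0 fell (median 0.12), or 50% called beside 43.3% of all genes. On the common sum 7 rose and 2, Cs and Vdac3, fell. The smallest p were those of 3 genes that rose, with Phb at 0.50, the carrier Slc25a4 at 0.26 and the chaperonin Hspd1 at 0.13.

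**Figure D5:**
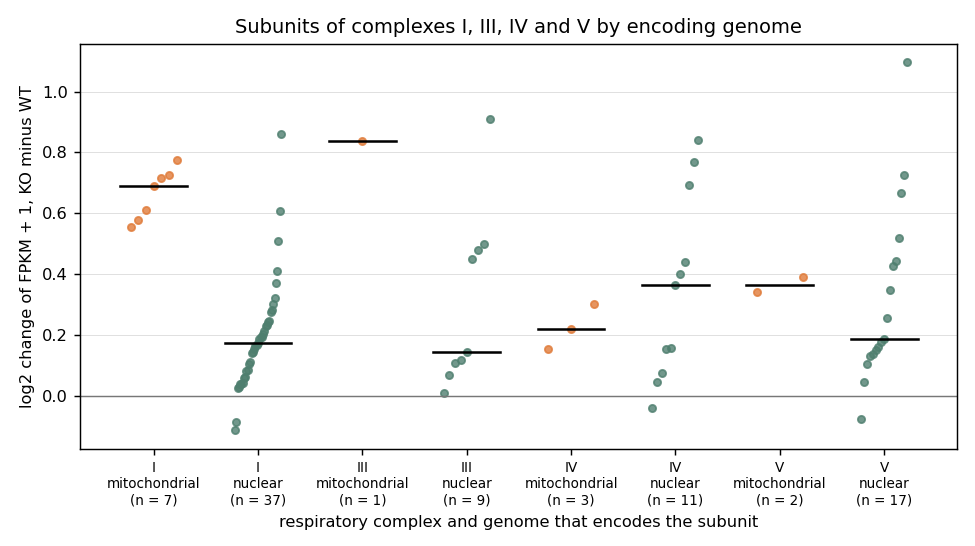
Log2 change of FPKM + 1, KO minus WT, of the subunits of complexes I, III, IV and V by the genome that encodes them. Points are genes and bars are medians. Mitochondrial medians are 0.69 for complex I and 0.22 for complex IV, and nuclear medians are 0.17 and 0.36.

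Of 8 genes tested that transcribe the mitochondrial genome, 1 rose and 1 fell (median 0.00), or 25% called beside 43.3% of all genes. Polrmt, the RNA polymerase of the organelle, had 4.62, 4.48 and 4.13 FPKM in the WT arm and 4.54, 5.56 and 5.28 FPKM in the KO arm. The arms overlapped and no call was made (log2 change 0.18, adjusted p = 0.108 by limma), but the gene passed without KO replicate 1 (adjusted p = 0.032). Tfam, which binds and packs the genome, had 12.7, 12.2 and 10.8 FPKM against 12.1, 12.1 and 12.2 FPKM (log2 change 0.02, adjusted p = 0.766). Tfb2m, its partner in starting transcription, rose by 0.18 (adjusted p = 0.0438), a call that each of the 6 fits without 1 library lost, with an adjusted p of 0.0538 to 0.12. Mterf3, described as a repressor of this transcription, fell by 0.25 on the log2 scale (adjusted p = 0.0213), and lost this call without WT replicate 2 or 3 or KO replicate 2 or 3, where the adjusted p reached 0.0653.

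Among 13 genes of replication and nucleotide supply, 2 rose and 3 fell, or 38.5% called beside 43.3% of all genes. The polymerase Polg rose from 4.46, 3.80 and 3.71 FPKM to 5.14, 5.57 and 5.45 FPKM (log2 change 0.36, adjusted p = 0.00799 by limma). The helicase Twnk went from 20.9, 20.8 and 21.2 FPKM to 19.0, 19.8 and 18.4 FPKM (log2 change -0.13, adjusted p = 0.0256), and lost this call without any library but KO replicate 2, where the adjusted p reached 0.0715. Cmpk2, a mitochondrial nucleotide kinase that is also an interferon-induced gene, fell from 1.36, 1.78 and 1.99 FPKM to 0.572, 0.667 and 0.513 FPKM (log2 change -0.77, adjusted p = 0.00173). Rrm2b, a ribonucleotide reductase subunit, fell by 0.23 on the log2 scale.

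Of 26 genes of mitochondrial RNA processing and modification, 7 rose and 1 fell (median 0.00), or 30.8% called beside 43.3% of all genes. Hsd17b10, a subunit of the enzyme that cuts the 5′ ends of tRNAs, rose from 29.5, 30.5 and 29.9 FPKM to 40.1, 39.1 and 40.1 FPKM (log2 change 0.40, adjusted p = 6.46e-05 by limma). Lrpprc, which stabilises mitochondrial mRNAs, rose by 0.29 and the tRNA modifying enzyme Gtpbp3 by 0.37. On the common sum 7 rose and 4 fell, or 42.3% called beside 42.5% of all genes. Of 5 genes of RNA turnover, 20% were called beside 43.3% of all genes. Grsf1, a protein of the mitochondrial RNA granules, fell by 0.15 on the log2 scale (adjusted p = 0.0103), while Supv3l1 (0.08) and Rexo2 (0.02) made no call.

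Regulators of mitochondrial biogenesis gave no common direction, with 2 of 11 tested higher and 2 lower (median -0.09), or 36.4% called beside 43.3% of all genes. Ppargc1a, the coactivator best known in this role, was at 0 in 5 libraries and at 0.00804 FPKM in the other. Nfe2l2 rose by 0.32, Ppard fell by 0.28 and Myc fell from 2.37, 2.78 and 3.92 FPKM to 0.581, 0.759 and 0.819 FPKM (log2 change -1.21, adjusted p = 0.00106 by limma).

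Marker genes of the macrophage lineage moved with the arms as well. Of 18 markers of microglia and macrophages 9 were tested, 5 higher and 2 lower (77.8% called beside 43.3% of all genes), and their summed FPKM was 793 to 831 in WT and 931 to 970.1 in KO libraries. Adgre1 (F4/80) fell from 99.8, 99.7 and 104 FPKM to 40.02, 40.4 and 37.5 FPKM, while Trem2 rose by 1.15 and Cd68 by 0.40. The summed neutrophil markers were at 2.03 to 2.30 FPKM in WT and at 0.791 to 1.31 FPKM in KO libraries. Their part in the mitochondrial result was not tested.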

How the data were processed

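Per the labels, RNA of sorted microglia was sequenced in 6 libraries, 3 per neutrophil genotype. Sample titles gave the groups and replicate numbers. Deposited was 1 table of FPKM per gene and library, which the authors did not pool. The submitters' processing notes name fastp 0.17.1, HISAT2 2.1.0, DESeq2 1.18.1 and R 3.4.3. The genome build, annotation and strand setting are not given in the sources used here. The labels and the study's methods name different library kits. Depth is unknown, since only 25.6% to 28.6% of low values were whole multiples of a common step (tolerance 5%), against 7.87% to 8.32% at the median step, so no count test was run.

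Symbols and positions came from GENCODE M21 (GRCm38), which named 55154 of 55335 identifiers. The test was limma 3.58.1 (R 4.3.3) with a variance trend on log2(FPKM + 1), KO minus WT, for genes at a mean of 1 FPKM or more, with Benjamini-Hochberg adjustment over 11395 genes. A log2 change on this scale understates that of low genes. Single values were compared by exact two-sided permutation tests. Copies were found with blastn 2.17.0. The fit was tested on simulated data. Alternatives were a pseudocount of 0.1, no filter, a mean of at least 5 FPKM, other scalings, no variance trend, a replicate block and leaving out each library. All mRNAs and rRNAs and the tRNAs with a mean of at least 1 FPKM were named, with up to 3 genes of smallest p of each list, 6 regulators and the copies. Members and lists were chosen with earlier results of these data known.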

Additional observations from a re-analysis of the deposited data

How the results depend on the processing

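Of 93 planned repeats of the counts, medians and shares, 89 stayed within 1.5 times the count or within 1 SD between libraries. The median log2 change of the 13 mRNAs was 0.58, and moved to 0.53 on the common sum and to 0.43 under quantile normalization, which fixes genes of equal rank. That of the nuclear subunits moved from 0.18 to 0.13 on the common sum, and to 0.20 on a common sum of the other genes without the near-identical copies, which was chosen after seeing the data. The difference in mitochondrial share moved from 3.22 to 4.18 percentage points with the copies added. The difference in the complex I to complex IV ratio moved from 0.44 to 0.51 when only mRNAs with a copy were used, also chosen after seeing the data. The cause of the last was not tested.

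Leaving out 1 library gave 24 to 26 members called, 23 to 25 of them higher, 9 to 10 mRNAs called relative to the set, 4082 to 4223 genes in all, a median of 0.54 to 0.61 for the 13 mRNAs and a share difference of 3.13 to 3.29 points. Of 551 planned repeats for single members, 504 kept direction and side of the threshold, 29 lost a call, 4 gained one and 14 changed sign. The sign changes were in 5 tRNAs that made no call under any alternative run. Over the 6 fits without 1 library, the log2 change went from -0.2368 to 0.4325 for mt-Tv, from -0.1354 to 0.0084 for mt-Ti, from -0.1047 to 0.0611 for mt-Ty, from -0.094 to 0.1309 for mt-Tg and from -0.009 to 3.6256 for mt-Ts2. The sign also changed for mt-Tv with a pseudocount of 0.1 (-0.006), for mt-Tg on the common sum (-0.0222) and for mt-Ty on the common sum of the other genes (0.0004; 0.0203 without the copies). Among other genes without a call, Tfam (-0.0222) and Rexo2 (-0.0305) changed sign on the common sum and ranged from -0.0375 to 0.0665 and from -0.0039 to 0.0446 without 1 library. Without the filter on low values, 23 members were called.

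No pairing by replicate number was detected, with deviations of same-numbered libraries correlated at -0.075, -0.052 and -0.0052. With 3 libraries per arm this cannot show that no preparation was shared. With the replicate block 24 members were called, against 28, and 4212 genes in all. The calls lost were those of mt-Tq, mt-Tk, mt-Tr and mt-Tp among members, and of Tfb2m, Mterf3 and Twnk among other genes named. Depth is unknown, so what it limits could not be measured.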
